A study of Mus musculus with 24 samples.

Results

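The livers of mice fed cholic acid were compared directly with the livers of mice fed high sucrose, the pair of diets without added cholesterol. The comparison took 9 of the 20 libraries used, 4 from the cholic acid diet (CA) and 5 from the high sucrose diet (HS), and 12595 of the 34436 genes in the table had enough reads to be tested. The members of interest were genes of 9 stress responses, 193 of them tested, and among these the genes that the diets moved to opposite sides of normal chow (NC, 4 libraries). All mice were wild-type C57BL/6, began their diet at 8 to 10 weeks of age and ate it for 8 weeks, after which RNA from whole liver was sequenced as single-end reads of 50 bases; the amounts of sucrose and cholic acid are not given in the sources used here. Each library is taken as a separate liver because the labels number them so, and nothing else describes how they relate, so p-values measure the spread between these libraries. Sucrose plus cholesterol (HS_Chol, 3 libraries) and cholesterol plus cholic acid (Chol_CA, 4 libraries), both with 2% cholesterol, are set beside the main comparison once, near the end.

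Cholic acid is a primary bile acid made by the liver from cholesterol. It activates the nuclear receptor FXR, which shuts down bile acid synthesis, and a bile acid load also reaches the xenobiotic receptors PXR and CAR. Sucrose is glucose joined to fructose, and its excess drives glycolysis and fat synthesis in hepatocytes. Stress programmes in hepatocytes have distinct switches. NRF2, held back by KEAP1, raises glutathione synthesis and conjugation. ATF4 is the effector of the integrated stress response and raises genes of amino acid synthesis and uptake. ATF6 and XBP1, in the unfolded protein response, raise the chaperones of the endoplasmic reticulum (ER).

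Library totals ran from 6790751 to 7769883 reads in HS, from 7850495 to 10244277 in CA and from 7598660 to 8215500 in NC. In 5 of these 13 libraries (NC_3, HS_0, HS_1, HS_2 and CA_0) the level of a gene relative to the other libraries fell with transcript length, and in the other 8 it rose. The 3 HS_Chol libraries stood apart: their reads of light-strand mitochondrial tRNA genes, relative to reads of heavy-strand mitochondrial mRNA, came to 673 to 900.2 parts per 1000000, against 8.95 to 83.4 in the other 17. Hepatocyte markers were abundant throughout, with a summed level of 107524 to 134821 CPM (counts per 1000000 reads, with library sizes scaled by TMM) in CA and 118801 to 139778 CPM in HS, and 6 of the 15 tested were lower in CA. The diet label of 1 HS sample reads normal chow while its title reads HS, and it cannot be tied to a single column. All 5 HS columns were alike in the zinc transporter gene Slc39a4, at 8.31 to 19.6 CPM against 74.6 to 109 CPM in NC.

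Because 12 ER chaperone genes and 10 integrated stress response genes were called below, the promoter stretches of a few are shown here with the motif of their known regulator in capitals. Sequences are from RefSeq promoters of build GRCm38.p6 (250 bases before to 50 after the start), 5′ to 3′ on the strand of the gene. For the ER genes the capitals mark the ER stress response element, searched as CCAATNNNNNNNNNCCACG on both strands, the element through which ATF6 acts together with NF-Y. In Creld2 and in the second match of Hsp90b1 it reads on the opposite strand.
Hspa5, chr2:34772010-34772058, plus strand: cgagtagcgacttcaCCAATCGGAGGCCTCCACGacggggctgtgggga
Hsp90b1, chr10:86705518-86705671, minus strand: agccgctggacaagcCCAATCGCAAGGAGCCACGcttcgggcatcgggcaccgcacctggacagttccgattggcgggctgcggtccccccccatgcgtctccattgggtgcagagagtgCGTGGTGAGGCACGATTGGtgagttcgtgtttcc
Creld2, chr15:88819505-88819553, plus strand: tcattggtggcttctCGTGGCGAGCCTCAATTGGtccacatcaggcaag
Pdia6, chr12:17266476-17266524, plus strand: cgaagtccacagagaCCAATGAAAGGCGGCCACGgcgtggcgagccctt
For the amino acid genes the capitals mark the C/EBP-ATF response element bound by ATF4, searched as TGATGNAA on both strands. The second match in Slc7a11 reads on the opposite strand.
Asns, chr6:7693210-7693247, minus strand: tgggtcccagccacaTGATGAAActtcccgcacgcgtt
Slc7a11, chr3:50443638-50443694, minus strand: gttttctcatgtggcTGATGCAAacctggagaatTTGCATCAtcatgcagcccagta

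The ER element was found in 9 of the 21 ER-list genes with a promoter in the table and in 0.137% of all 27025 promoters. The C/EBP-ATF element was found in 9 of the 23 integrated stress response genes with a promoter, and in 4.51% of all promoters. For NRF2 the antioxidant response element, searched as TGACNNNGC on both strands, was found in 7 of 25 list genes and 14% of all promoters. Its matches did not include Ephx1, Gstm4 or Gsta2, named below. A match is a description of these letters, and its absence says only that they are not in this window.

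Between the diets, 868 genes were higher in CA than in HS, 6.89% of those tested, and 797 were lower, 6.33%, by edgeR's quasi-likelihood test with Benjamini-Hochberg adjusted p under 0.05. The median log2 fold change over all genes was -0.0025, near 0 as the TMM scaling sets it. Of the 193 stress genes 48 were higher and 21 lower. With HS and CA fitted alone, without the libraries that stood apart, 836 genes were higher and 693 lower. A fit of all libraries whose levels rise with transcript length gave 1118 and 1102. From HS and CA it held HS_3, HS_4 and CA_1 to CA_3, and it also held HS_Chol_1 and HS_Chol_2. Against chow the diets differed in reach, with 657 genes higher (5.22%) and 581 lower (4.61%) in CA, 9.83% either way, against 27 higher (0.214%) and 55 lower (0.437%) in HS. The comparisons with chow share the 4 NC libraries, so their values are given side by side only.

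Opposite movement was read in 2 ways. In the strict reading a gene had to be called against NC in both diets with opposite signs. This held for 23 genes, 0.183% of all genes tested, of which 17 were above chow in CA and below it in HS, and 6 the reverse. Among the stress genes it held for 4, all of the NRF2 and glutathione list (29 tested): Ephx1, Gsta4, Gstm4 and Gsta2. Of the CAR and PXR drug metabolism list, which is not a stress list, 5 of 21 tested genes met it. In the loose reading a gene was called in CA against HS with the fitted NC level in between. This held for 52 of the 69 stress genes called (75.4%) and for 1272 of the 1665 genes called among all tested (76.4%), which is 10.1% of all genes tested. The stress genes called were thus near the background share.

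**Figure D1:**
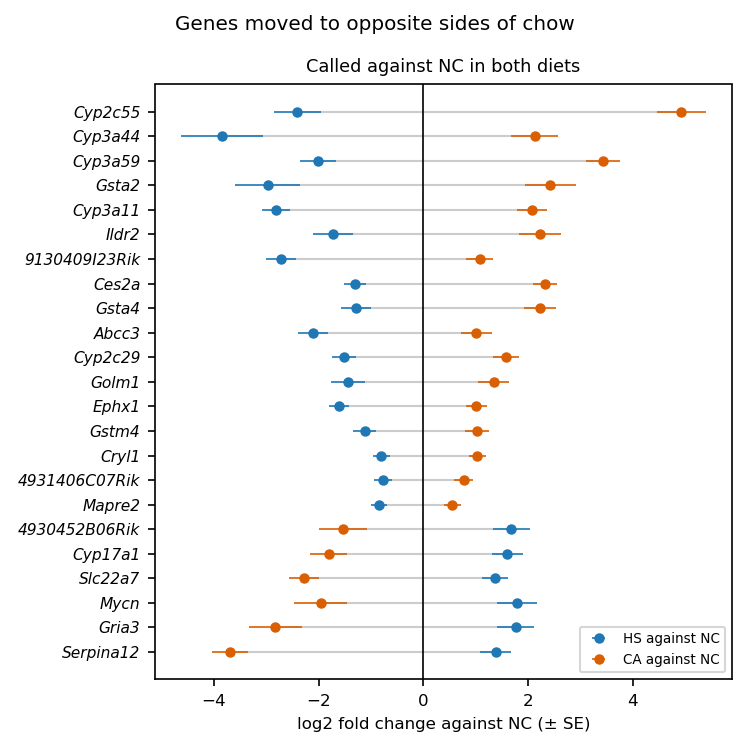
Fitted log2 fold change against NC (horizontal axis, bars are the SE) of the 23 genes called against NC in both diets with opposite signs, HS in blue and CA in orange. The 17 genes at the top lie left of 0 in HS and right of 0 in CA, and the 6 at the bottom lie the other way round; both sets of fold changes use the same 4 NC libraries.

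Of the 9 stress lists, NRF2 and glutathione had the largest share of members called in 1 direction, 72.4%. Of all genes tested 6.89% were called higher. Of 29 tested, 21 were higher in CA than in HS and none was lower by edgeR, by DESeq2 or at an unadjusted p under 0.05, with a median log2 fold change of 1.72. The libraries of the 2 diets did not overlap, with CA higher, in 22 of 29 members against 6.3% of all genes. In CA against NC edgeR called 15 members higher and none lower (2 at an unadjusted p under 0.05). In HS against NC it called 7 lower and none higher (0 at an unadjusted p under 0.05).

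Ephx1, microsomal epoxide hydrolase, opens reactive epoxides to diols. Its levels were 219.8, 209, 276, 171 and 233 CPM in HS, 708, 572, 844 and 568 CPM in NC and 984, 1038, 1789 and 1607 CPM in CA. The 3 diets did not overlap, with HS lowest and CA highest. The difference between CA and HS was log2 fold change 2.61 ± 0.19 (SE), edgeR adjusted p = 3.14e-08, made of 1.01 in CA and -1.60 in HS against NC on the log2 scale.

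The other 3 strict genes encode glutathione S-transferases, which join glutathione to electrophiles. Gsta4, the form that handles the lipid peroxidation product 4-hydroxynonenal, stood at 49.7, 41.4, 44.2, 25.7 and 27.0 CPM in HS, 74.5, 67.9, 101 and 121 CPM in NC and 235, 324, 566 and 576 CPM in CA. Its CA to HS difference was log2 fold change 3.50 ± 0.30 (SE), edgeR adjusted p = 1.44e-07. Gsta4 rose in the order HS, NC, CA without overlap of any libraries, and the highest CA values were in CA_2 and CA_3.

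Gstm4 showed 53.9, 38.6, 46.4, 43.0 and 40.6 CPM in HS, 93.1, 71.2, 111 and 110.2 CPM in NC and 154, 155, 210.2 and 267 CPM in CA. This gave log2 fold change 2.14 ± 0.22 (SE), edgeR adjusted p = 2.04e-06. Again every NC library lay between the diets.

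For Gsta2 the levels were 0.996, 0.978, 1.88, 0.136 and 0.300 CPM in HS, 3.58, 3.18, 10.9 and 9.09 CPM in NC and 23.5, 23.8, 44.4 and 52.7 CPM in CA. The fitted difference was log2 fold change 5.40 ± 0.58 (SE), edgeR adjusted p = 2.65e-06. HS was near the bottom of what these libraries can measure, since 3 reads over the 5 HS libraries correspond to 0.0894 CPM. Gsta1 and Gsta2, and the Gstm genes among themselves, are close copies whose reads may be shared, so the split between them is uncertain. The strict calls of Gsta4, Gstm4 and Gsta2 rest on HS against NC at the margin: each was lost when single NC or HS libraries were left out, and the strict stress count then ranged from 1 to 4, while Ephx1 kept its calls in each of these fits. With a minimum fold change of 1.5 in the test no stress gene met the strict reading, and with a block on the column number only Ephx1 did.

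**Figure D2:**
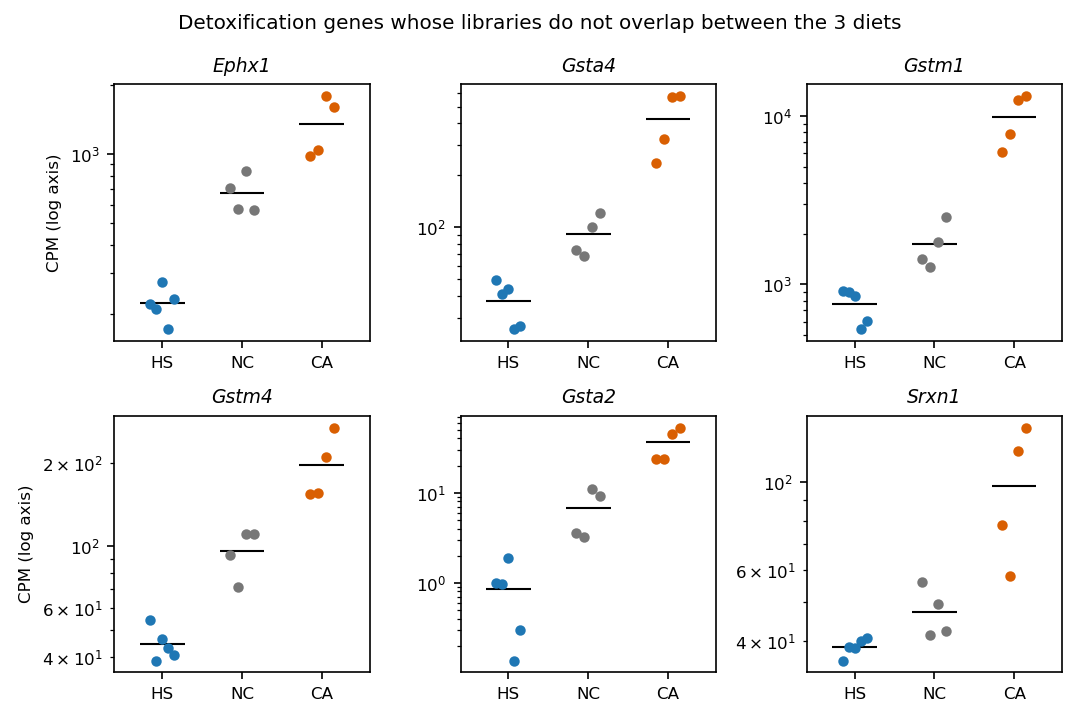
CPM on log axes in each library (points) of HS, NC and CA, with the mean as a line, for the 6 NRF2 and glutathione genes in which the 3 diets do not overlap. HS is lowest and CA highest in all 6 panels, and the vertical axes differ between panels.

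Gstm1 and Srxn1 also had non-overlapping levels in the order HS, NC, CA but were not called in HS against NC. Gstm1, an abundant liver transferase, went from 540.4 to 916 CPM in HS through 1271 to 2503 CPM in NC to 6062 to 13084 CPM in CA (log2 fold change 3.69 ± 0.35 SE, edgeR adjusted p = 5.41e-07). Srxn1 encodes sulfiredoxin, which restores oxidized peroxiredoxins, and ran from 35.6 to 40.5 CPM in HS to 57.9 to 137 CPM in CA (log2 fold change 1.35 ± 0.25 SE, edgeR adjusted p = 0.000967). Non-overlap of all 3 diets with NC in the middle was seen in 6 of the 29 list members and in 0.58% of all genes tested.

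Gstm3 had the largest fitted rise among members with reads in every diet. Its levels were 47.3, 37.6, 30.7, 25.7 and 28.8 CPM in HS, 78.3, 46.7, 72.6 and 97.7 CPM in NC and 1365, 3378, 6159.8 and 6476 CPM in CA (log2 fold change 7.00 ± 0.58 SE, edgeR adjusted p = 1.12e-07). NC and HS overlapped, and CA lay above both. Gsta1 was without a read in all 5 HS libraries and had 1.06, 2.47, 10.3 and 17.0 CPM in CA, which is at least 86.1-fold higher when 3 reads over the HS group are taken as the floor.

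Enzymes of quinone reduction and glutathione synthesis were higher as well. Nqo1, a quinone reductase, stood at 4.70, 3.75, 3.29, 2.31 and 1.95 CPM in HS, 5.01, 4.02, 7.78 and 6.53 CPM in NC and 13.8, 18.8, 40.3 and 51.7 CPM in CA (log2 fold change 3.28 ± 0.43 SE, edgeR adjusted p = 2.71e-05). Gclc, the catalytic subunit that limits glutathione synthesis, was at 386, 375, 449, 368 and 417 CPM in HS, 852, 757, 825 and 616 CPM in NC and 722, 792, 967 and 745 CPM in CA (log2 fold change 1.02 ± 0.16 SE, edgeR adjusted p = 0.00017). In Gclc the CA libraries overlapped NC, and HS lay below both, with -0.93 on the log2 scale against NC (edgeR adjusted p = 0.00524). Its partner subunit Gclm was higher in CA than in HS by 1.04 on the log2 scale. Aox1 (aldehyde oxidase) and Ugdh, which makes UDP-glucuronic acid, were like Gclc, with log2 fold changes of -1.58 and -1.53 in HS against NC, both called, and of 0.43 and 0.56 in CA against NC, neither called.

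Osgin1, an oxidative stress-induced growth inhibitor, rose above chow in CA with HS close to NC. It was at 208 to 291 CPM in HS, 185 to 297 CPM in NC and 679 to 1057 CPM in CA. Abcc4, an exporter that carries conjugated bile acids at the sinusoidal membrane, was at 4.27, 1.96, 2.35, 3.81 and 2.85 CPM in HS and 7.99, 14.4, 66.9 and 65.0 CPM in CA (log2 fold change 3.65 ± 0.50 SE, edgeR adjusted p = 4.12e-05). The ferritin heavy chain gene Fth1 and glutathione reductase, Gsr, were higher in CA than in HS by 1.12 and 0.99 on the log2 scale. Not called were Txnrd1, Hmox1, Nfe2l2, Gstp1, Keap1, Cat, Prdx1 and Gstm6, with log2 fold changes from -0.31 (Gstp1) to 0.72 (Hmox1). Nfe2l2 encodes NRF2 itself and Keap1 its inhibitor, and their log2 fold changes were 0.28 and 0.08. Within CA, CA_2 and CA_3 held the highest levels in 19 of the 21 called members.

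The ER chaperone list went the other way. Of 25 genes tested edgeR called 12 lower in CA than in HS (48%, against 6.33% of all genes tested) and none higher (against 6.89%). The median log2 fold change was -0.38. In the higher direction 1 had an unadjusted p under 0.05 and DESeq2 called 1. In CA against NC 8 were lower. In HS against NC edgeR called none, with 1 higher and 1 lower at an unadjusted p under 0.05, so no gene of this list met the strict reading; 9 met the loose one.

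Hspa5 encodes BiP, the main ER chaperone. It stood at 449, 909, 696, 840.0 and 804 CPM in HS, 736, 779, 622 and 756 CPM in NC and 549, 399, 374 and 399 CPM in CA (log2 fold change -0.78 ± 0.19 SE, edgeR adjusted p = 0.00784). HS_0 lay within the CA range, while the other HS libraries and all of NC were above it. Hsp90b1, which encodes GRP94, was at 624, 1207, 985, 1317 and 1482 CPM in HS and 709, 639, 581 and 602 CPM in CA (log2 fold change -0.83 ± 0.19 SE, edgeR adjusted p = 0.00607). Here too HS_0 lay within the CA range.

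Calr encodes calreticulin, which folds glycoproteins, and measured 905, 1344, 1131, 1190.4 and 1248 CPM in HS and 975, 799.7, 549 and 647 CPM in CA (log2 fold change -0.65 ± 0.14 SE, edgeR adjusted p = 0.00433). Dnajb11, a co-chaperone of BiP, had the smallest p of the list, at 78.3, 149, 138, 139 and 162 CPM in HS and 93.8, 71.0, 60.1 and 74.6 CPM in CA (log2 fold change -0.83 ± 0.18 SE, edgeR adjusted p = 0.00277). Pdia6, a disulfide isomerase, was at 196, 316, 298, 294 and 310.1 CPM in HS and 215, 184, 133 and 166 CPM in CA (log2 fold change -0.69 ± 0.16 SE, edgeR adjusted p = 0.0056). In these 3 genes HS_0 was the lowest HS library and CA_0 the highest CA library.

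The disulfide isomerases Pdia3 and Pdia4 differed by -0.49 and -0.56 on the log2 scale, and the folding factors Creld2, Manf, Sdf2l1 and Hyou1 by -1.29, -0.78, -0.97 and -0.83. Derl3, of ER-associated degradation, was the most variable, from 1.14 to 34.9 CPM within HS. The sensors Atf6 and Ern1 and the transcription factor gene Xbp1 were not called, with log2 fold changes of 0.07, -0.01 and -0.38. HS_0 was the lowest HS library in all 12 called genes. HS_1 to HS_4 all lay above every CA library in 11 of the 12. That count covers only genes already called and leaves out HS_0 after its values were seen. It has no share over all genes beside it. With HS_0 included, the diets did not overlap, with CA lower, in 1 of the 25 list genes, against 6.59% of all genes. They did not overlap with CA higher in 1, against 6.3% of all genes. In HS_0, as in HS_1, HS_2 and CA_0, levels fall with transcript length, and CA_0 was the highest CA library in all 12 called genes. The part of the length trend in the HS_0 levels was not tested. Among libraries of rising trend alone 14 members were lower, and without HS_0 12 were. With HS and CA fitted alone 6 were lower, and with a minimum fold change of 1.5 in the test none was. A block on the column number also left none, and the same 12 libraries without the block left 5. Leaving out HS_1, HS_3 or HS_4 left 6, 7 and 6 called, and leaving out CA_1, CA_2 or CA_3 left 6, 5 and 5.

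Of the 9 list genes whose promoter holds the ER element, 6 were lower, with a median of -0.69, and of the 12 without it 4 were lower, with a median of -0.19. For NRF2 the order was the other way: of the 7 list genes with the antioxidant element 4 were higher, with a median of 1.04, and of the 18 without it 14 were higher, with a median of 2.14. These medians are descriptions of few genes.

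**Figure D3:**
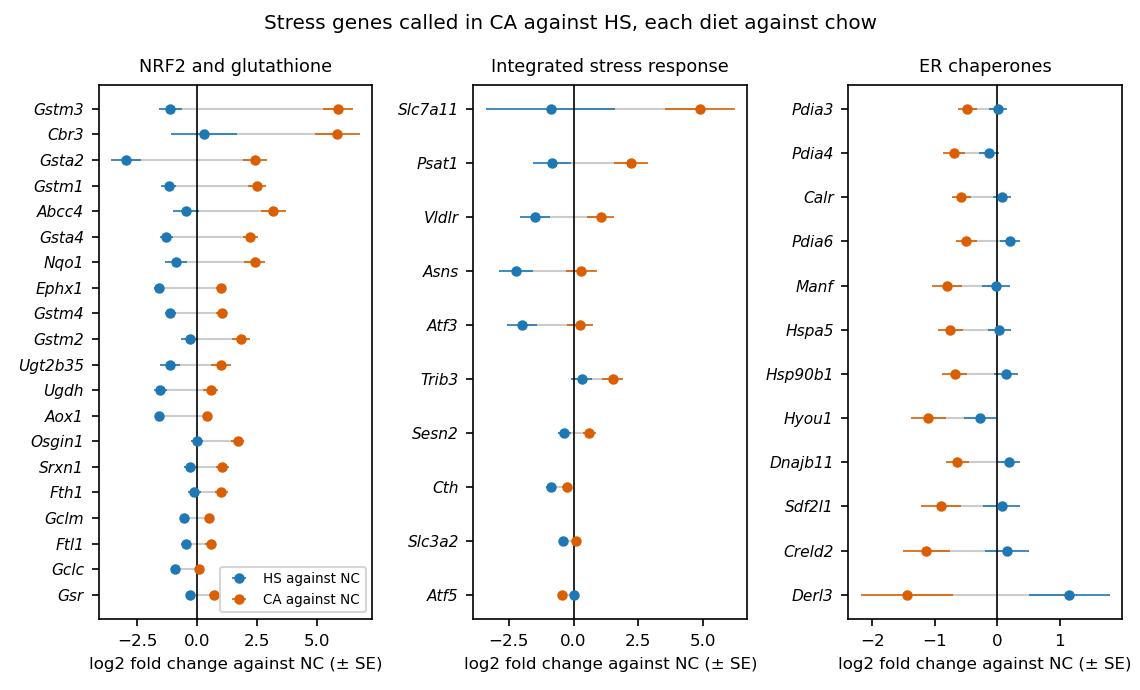
Fitted log2 fold change against NC (horizontal axis, bars are the SE) in HS (blue) and CA (orange) of the list members called in CA against HS that had reads in every diet, ordered by the difference between the diets. NRF2 genes lie mostly left of 0 in HS and right of it in CA, ER chaperones near 0 in HS and left of it in CA, and horizontal scales differ between panels; both diets use the same NC libraries.

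The integrated stress response list held 24 tested genes, with a median log2 fold change of 0.65. Of these, 9 were higher in CA (37.5%, against 6.89% of all genes tested) and 1 lower (4.17%, against 6.33%). None met the strict reading. The rise was carried by CA_2 and CA_3, which were the highest CA libraries in 8 of the 9 genes.

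Asns makes asparagine and is a classic ATF4 target. It stood at 1.71, 2.77, 2.35, 3.40 and 1.05 CPM in HS, 21.3, 3.05, 6.35 and 11.9 CPM in NC and 3.17, 2.71, 25.3 and 20.8 CPM in CA (log2 fold change 2.52 ± 0.63 SE, edgeR adjusted p = 0.0103). CA_0 and CA_1 were within the HS range and CA_2 and CA_3 well above it, while NC spread over both. Psat1, of serine synthesis, showed 0.142, 1.63, 0.941, 1.63 and 1.20 CPM in HS and 1.06, 3.06, 19.1 and 13.4 CPM in CA (log2 fold change 3.04 ± 0.65 SE, edgeR adjusted p = 0.0029). The same CA libraries were high in Psat1, and CA_0 lay within HS.

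Slc7a11 encodes the cystine carrier that feeds glutathione synthesis and is a target of both ATF4 and NRF2. It had 1 read over all of HS and 94 over CA, nearly all in CA_2 and CA_3 (2.67 and 7.01 CPM), a ratio of 86.3 with a 95% counting interval of 15.1 to 3445. Trib3, a pseudokinase induced by ATF4, was at 13.7, 15.3, 4.24, 11.8 and 10.2 CPM in HS and 8.46, 13.3, 42.8 and 36.5 CPM in CA (log2 fold change 1.20 ± 0.39 SE, edgeR adjusted p = 0.0478). Vldlr, a lipoprotein receptor, and Atf3, a stress transcription factor, were higher in CA by 2.55 and 2.25 on the log2 scale. Atf3 was not called without CA_2 (edgeR adjusted p = 0.0708), nor Slc7a11 without CA_3 (edgeR adjusted p = 0.0622).

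Fgf21, a hepatic hormone of nutrient stress, missed the threshold: its levels were 14.2, 5.87, 17.4, 23.9 and 17.5 CPM in HS and 8.35, 9.77, 140.1 and 56.8 CPM in CA (log2 fold change 1.77 ± 0.62 SE, edgeR adjusted p = 0.0662). It too was high in CA_2 and CA_3 alone, and it was called without CA_0 (edgeR adjusted p = 0.0143) or CA_1 (edgeR adjusted p = 0.0249). Gdf15, Ddit3 (CHOP) and Atf4 did not pass the test, with log2 fold changes of 1.42, 0.23 and 0.06. Cth, of cysteine synthesis, was below chow in HS (log2 fold change -0.87, called), and in CA its log2 fold change against chow was -0.24, not called. Atf5 was the 1 list gene lower in CA (log2 fold change -0.46). Without CA_2 the list had 3 genes higher and without CA_3 5. Of the 9 genes with the C/EBP-ATF element, 5 were higher (median 1.77), against 3 of the 12 without it (median 0.29).

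**Figure D4:**
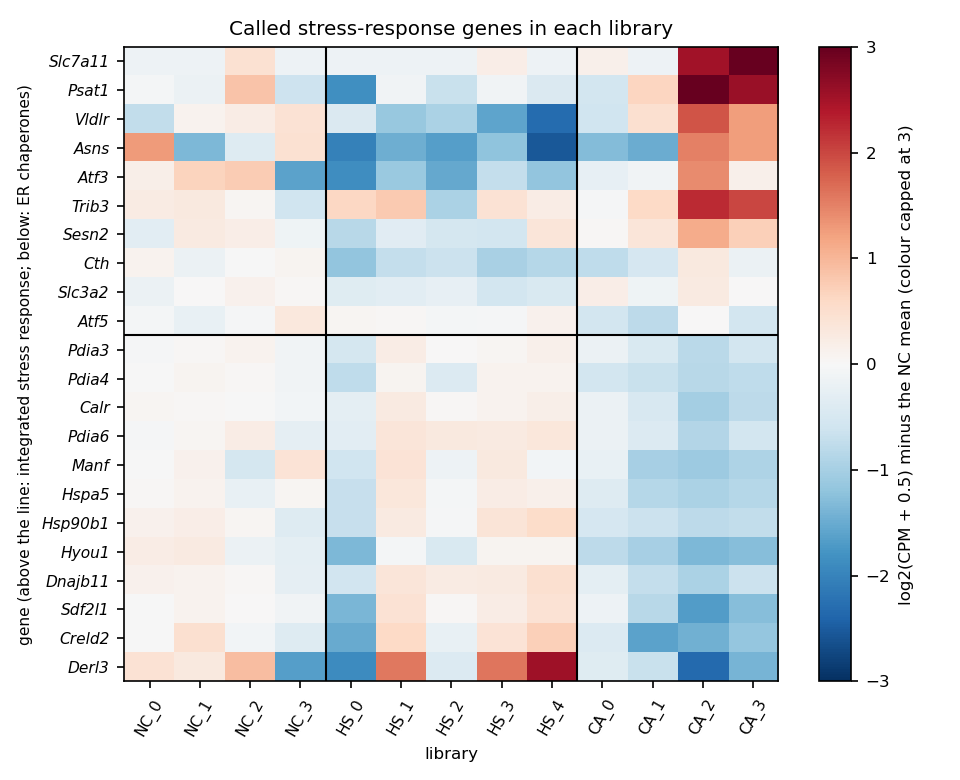
log2(CPM + 0.5) minus the NC mean (colour, capped at 3) in each NC, HS and CA library (columns) for the called integrated stress response genes (rows above the line) and ER chaperone genes (below it). CA_2 and CA_3 are red in most rows of the upper block but not in Atf5, nor CA_3 in Cth, and HS_0 and the CA libraries are blue in the lower block.

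In the p53 list edgeR called 5 of 20 genes higher (25%, against 6.89% of all genes tested) and none lower (against 6.33%). In the lower direction 1 had an unadjusted p under 0.05 and DESeq2 called 1. Cdkn1a, which encodes the cell cycle inhibitor p21, was at 3.56, 2.12, 2.35, 4.08 and 4.35 CPM in HS, 4.01, 1.80, 1.43 and 12.4 CPM in NC and 52.4, 23.8, 10.4 and 15.4 CPM in CA (log2 fold change 2.93 ± 0.53 SE, edgeR adjusted p = 0.000638). CA_0 was the highest CA library, unlike in the amino acid genes. Eda2r, a p53-induced receptor of the tumour necrosis factor family, was at 0.427, 0, 0.627, 0.544 and 0.450 CPM in HS and 3.53, 3.06, 2.17 and 2.55 CPM in CA (log2 fold change 2.72 ± 0.43 SE, edgeR adjusted p = 0.000213). The p53 targets Mdm2 and Bax did not pass the test, with log2 fold changes of 0.22 and 0.22.

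Among 24 immediate early genes 5 were higher (20.8%, against 6.89% of all genes tested) and 1 lower (4.17%, against 6.33%). Gadd45b stood at 0.996, 0.326, 1.10, 0.272 and 0.300 CPM in HS, 3.15, 7.34, 6.74 and 1.56 CPM in NC and 4.70, 11.5, 48.6 and 26.9 CPM in CA (log2 fold change 5.23 ± 0.72 SE, edgeR adjusted p = 4.3e-05), with NC overlapping CA. Klf6 was even across CA, at 20.2, 19.5, 22.0 and 20.3 CPM against 10.2, 5.21, 6.75, 8.16 and 9.75 CPM in HS (log2 fold change 1.35 ± 0.24 SE, edgeR adjusted p = 0.000538). Myc was uneven, at 41.1, 11.7, 66.5 and 27.7 CPM in CA and 7.83, 2.77, 5.18, 2.99 and 3.00 CPM in HS (log2 fold change 3.07 ± 0.77 SE, edgeR adjusted p = 0.0102). Egr1 was at 25.9, 12.2, 13.2, 21.6 and 16.5 CPM in HS, 75.2, 99.0, 72.5 and 207 CPM in NC and 18.1, 46.4, 107 and 30.1 CPM in CA, so that CA overlapped both. Its CA to HS difference (log2 fold change 1.49 ± 0.42 SE, edgeR adjusted p = 0.023) was not called without CA_2, where the edgeR adjusted p was 0.201, nor without HS_1, HS_2 or HS_4, where it was 0.0626, 0.0619 and 0.0511. Fos did not pass the test between the diets (log2 fold change 0.58), and it was lower than chow in both. The phosphatase gene Dusp1 was lower in CA (log2 fold change -0.92).

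Outside the NRF2 list the smallest adjusted p of the stress genes was that of Slc39a4, which encodes ZIP4, a zinc importer. It stood at 12.5, 19.6, 8.31, 12.1 and 8.70 CPM in HS, 104, 74.6, 109 and 77.8 CPM in NC and 151, 125, 106 and 151 CPM in CA (log2 fold change 3.45 ± 0.26 SE, edgeR adjusted p = 3.62e-08). HS lay far below chow (-2.90 on the log2 scale), and CA overlapped chow. The metallothionein genes, which buffer zinc and copper, were uneven: Mt1 was at 13.8, 10.8, 6.59, 8.57 and 5.25 CPM in HS and 12.7, 26.0, 112 and 54.4 CPM in CA (log2 fold change 2.51 ± 0.76 SE, edgeR adjusted p = 0.0325), and Mt2 was higher in CA by 2.92 on the log2 scale. Neither call was firm. Mt1 lost it without any 1 of HS_1, HS_2, HS_3, HS_4, CA_2 and CA_3 (edgeR adjusted p of 0.0622 to 0.169), and Mt2 without any 1 HS library, CA_2 or CA_3 (0.0579 to 0.212). Tat, tyrosine aminotransferase and a glucocorticoid target, was lower in CA (log2 fold change -0.89). Of the 14 genes in that list 4 were higher (28.6%, against 6.89% of all genes tested) and 1 lower (7.14%, against 6.33%).

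Of 23 acute phase genes 3 were higher (13.04%, against 6.89% of all genes tested) and 2 lower (8.7%, against 6.33%). Lbp, which binds lipopolysaccharide, was at 74.9, 66.0, 76.7, 104 and 82.6 CPM in HS and 225, 239.9, 191 and 212 CPM in CA (log2 fold change 1.43 ± 0.16 SE, edgeR adjusted p = 5e-06). Serpina3n fell, from 364 to 520.0 CPM in HS to 262 to 269 CPM in CA, and Crp, a modest acute phase protein in mice, had a log2 fold change of -0.53. Saa1 stood at 192, 35.0, 14.8 and 18.2 CPM in CA against 29.7, 44.0, 26.5, 32.1 and 31.0 CPM in HS, with only CA_0 above HS; its log2 fold change of 0.99 became -0.53 without CA_0, and it was not called either way.

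By edgeR and DESeq2 none of 20 heat shock genes was higher (1 at an unadjusted p under 0.05). The lower direction held 1 of the 20, or 5% against 6.33% of all genes tested. The gene was Dnaja1, a co-chaperone of cytosolic HSP70, at 42.0, 44.6, 43.5, 35.0 and 37.3 CPM in HS and 32.1, 22.0, 19.7 and 19.8 CPM in CA (log2 fold change -0.79 ± 0.17 SE, edgeR adjusted p = 0.00292). Among 14 hypoxia genes Ndrg1 was higher (log2 fold change 1.79), and Ldha, Vegfa and Egln3 were lower by -0.64, -0.76 and -0.61 on the log2 scale. These were 7.14% and 21.4% of the list, against 6.89% and 6.33% of all genes tested. Ldha, lactate dehydrogenase, stood at 476 to 546 CPM in HS and 291 to 375 CPM in CA without overlap.

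Beyond the stress lists, the largest rises were in enzymes of drug and steroid metabolism. Cyp2b10, the standard CAR target, went from 0.427, 0.163, 0, 0.136 and 0.150 CPM in HS and 3.01, 1.52, 1.69 and 3.69 CPM in NC to 17.5, 65.2, 314 and 244 CPM in CA (log2 fold change 9.68 ± 0.84 SE, edgeR adjusted p = 1.65e-07). Cyp2b13 had no read in HS and 0.940, 9.54, 54.0 and 48.3 CPM in CA, at least 315-fold higher against the floor of 3 reads. Cyp2a4, Cyp2b9 and Akr1b7 were likewise at most 1.42 CPM in any HS or NC library, and in all 3 CA_0 was the lowest CA library. Close copies make the split among the Cyp2b genes uncertain.

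Of the 21 CAR and PXR genes tested 16 were higher (76.2%, against 6.89% of all genes tested) and 1 lower (4.76%, against 6.33%). The strict reading was met by 5. Cyp3a11, the main PXR target in mouse liver, stood at 866, 544, 456, 384 and 329.9 CPM in HS, 3312, 3729, 3069 and 4349.6 CPM in NC and 12062, 13596, 19771 and 15594 CPM in CA (log2 fold change 4.89 ± 0.29 SE, edgeR adjusted p = 2.92e-09). Its diets did not overlap, and HS was below chow by -2.81 on the log2 scale. Ces2a, a carboxylesterase, was at 109, 138, 121, 88.4 and 84.9 CPM in HS, 246, 271, 267 and 288 CPM in NC and 730.3, 1094, 2045 and 1480.0 CPM in CA (log2 fold change 3.63 ± 0.22 SE, edgeR adjusted p = 2.92e-09). Cyp2c55 was among the largest rises, at 2.40 to 4.41 CPM in HS, 15.1 to 22.5 CPM in NC and 156 to 899.6 CPM in CA.

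The remaining strict genes included carriers and a secreted serpin. Abcc3, a basolateral exporter of glucuronides and bile acids, was at 130.1, 79.7, 56.6, 87.5 and 64.5 CPM in HS, 365, 360.2, 407 and 303 CPM in NC and 316, 571, 1077 and 939 CPM in CA, and here CA_0 lay within NC. Slc22a7, an organic anion carrier, went the other way, at 59.3, 85.7, 63.7, 67.2 and 46.0 CPM in HS, 28.2, 28.5, 15.2 and 27.6 CPM in NC and 8.11, 4.47, 3.65 and 4.25 CPM in CA. Serpina12 encodes vaspin and was at 203, 255, 214, 176 and 150.4 CPM in HS, 68.2, 83.9, 38.8 and 115 CPM in NC and 9.87, 5.18, 4.74 and 3.93 CPM in CA. In 18 of the 23 strict genes no library of any diet overlapped another diet.

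Bile acid synthesis genes were lower in CA in 7 of 17 cases (41.2%, against 6.33% of all genes tested). They were higher in 3 (17.6%, against 6.89%). Cyp8b1, which makes cholic acid, was at 304, 449, 362, 387 and 421 CPM in HS and 0.705, 1.18, 1.58 and 2.12 CPM in CA (log2 fold change -8.07 ± 0.35 SE, edgeR adjusted p = 1.67e-11). Cyp7a1, which limits bile acid synthesis, was at 12.1, 13.4, 12.1, 37.0 and 16.8 CPM in HS, 65.0, 42.2, 35.9 and 72.1 CPM in NC and 0.118, 0.236, 1.38 and 0.212 CPM in CA (log2 fold change -5.11 ± 0.55 SE, edgeR adjusted p = 2.84e-06). Ostb, a subunit of the basolateral bile acid exporter, rose from 0.150 to 1.57 CPM in HS to 13.3 to 20.0 CPM in CA.

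Many genes of fat synthesis, sugar use and sterol synthesis were lower in CA. Of 24 lipogenic genes 15 were lower in CA and none higher, of 17 genes of fructose use and glycolysis 7 were lower and none higher, and of 24 cholesterol synthesis genes 18 were lower and none higher. The lower calls were 62.5%, 41.2% and 75% of these 3 lists, against 6.33% of all genes tested. In each list the higher direction was also empty by DESeq2 and at an unadjusted p under 0.05. Pnpla3, an acylhydrolase of lipid droplets, stood at 23.9, 23.0, 48.9, 23.1 and 18.0 CPM in HS, 1.86, 1.80, 1.43 and 7.95 CPM in NC and 5.41, 7.18, 4.54 and 6.91 CPM in CA (log2 fold change -2.19 ± 0.41 SE, edgeR adjusted p = 0.00103). Fasn, fatty acid synthase, was at 1063, 1015, 1526, 1585 and 1334 CPM in HS and 523, 482, 273 and 338 CPM in CA (log2 fold change -1.69 ± 0.43 SE, edgeR adjusted p = 0.0116). Sqle, of sterol synthesis, was at 27.6, 31.8, 50.8, 65.3 and 60.6 CPM in HS and 1.88, 5.65, 1.97 and 6.80 CPM in CA (log2 fold change -3.53 ± 0.34 SE, edgeR adjusted p = 8.38e-07). For Sqle the NC libraries (70.7, 58.9, 71.8 and 69.2 CPM) were with or above HS.

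Sex-biased and zonal hepatocyte genes also moved. Of 23 genes with male-biased expression in mouse liver 19 were lower in CA and none higher by edgeR, by DESeq2 or at an unadjusted p under 0.05, and of 13 female-biased genes 11 were higher and 1 lower. The male-biased list was thus 82.6% lower, against 6.33% of all genes tested, and the female-biased list 84.6% higher, against 6.89%. The labels give no sex. Summed Y-linked levels ran from 142 to 178 CPM in CA and from 148 to 189 CPM in HS. Mup7, a major urinary protein, was at 60.1, 279, 307, 163 and 190.3 CPM in HS and 1.18, 0, 0.790 and 0.319 CPM in CA (log2 fold change -8.40 ± 0.90 SE, edgeR adjusted p = 2.71e-06); the Mup genes are near-identical copies, so their split is uncertain. Pericentral genes were lower in 14 of 18 cases, among them Glul, glutamine synthetase, at 1102 to 1476 CPM in HS and 201 to 372 CPM in CA (log2 fold change -2.26 ± 0.15 SE, edgeR adjusted p = 1.11e-08). Cyp2c29 was among the 2 pericentral genes that were higher (log2 fold change 3.09). The pericentral calls were 77.8% lower and 11.1% higher, against 6.33% and 6.89% of all genes tested.

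**Figure D5:**
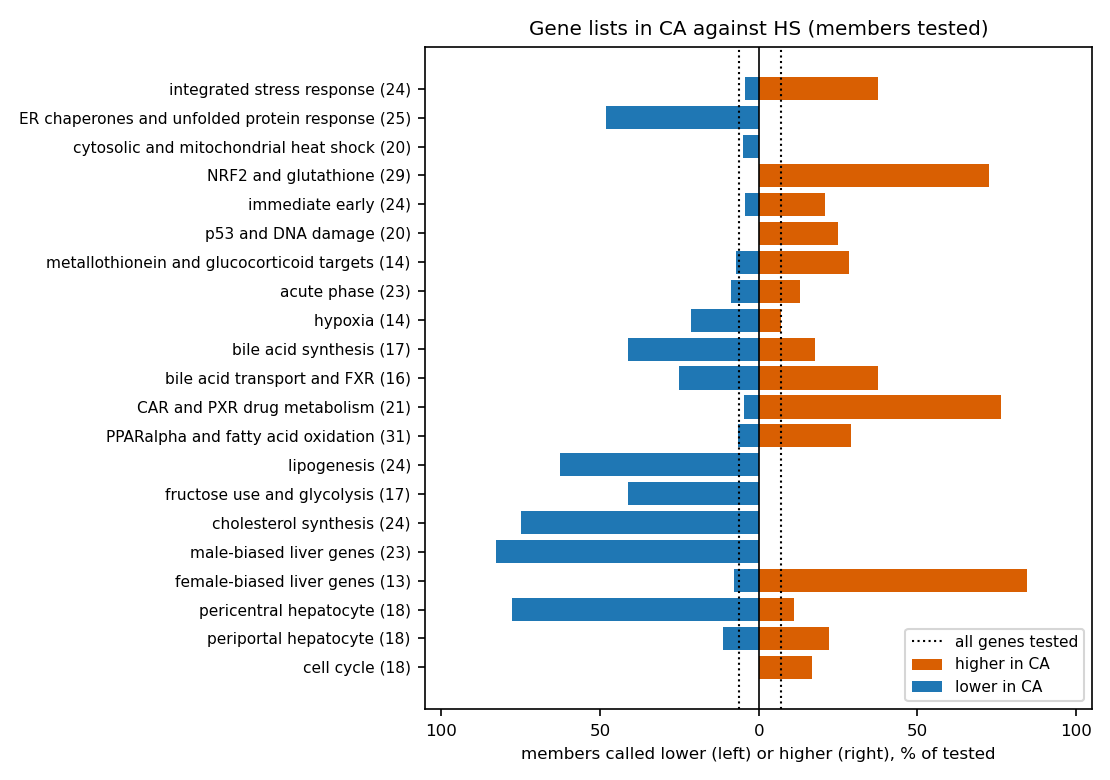
Share of tested members (percent, number tested in brackets) called higher (orange, right) or lower (blue, left) in CA against HS for each stress and metabolic list, with the shares over all genes tested (6.89% and 6.33%) as dotted lines. The NRF2, CAR and PXR, and female-biased lists extend to the right, and the ER chaperone, lipogenesis, cholesterol synthesis, male-biased and pericentral lists to the left.

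Some markers of other cell types differed between the diets in this bulk tissue, where fewer cells of a type and less RNA per cell cannot be told apart. Shares below are set against 6.89% higher and 6.33% lower over all genes tested. Of 15 Kupffer cell markers 9 were higher (60%) and 1 (6.67%), C6, a complement gene, was lower in CA. Their summed level was 634 to 1220.4 CPM in CA and 497 to 879 CPM in HS. CA_0 had the highest Kupffer sum and also the highest sum of T and NK cell markers, 59.2 CPM against 5.43 to 23.2 CPM in the other CA libraries and 9.80 to 16.3 CPM in HS. CA_0 was also the highest library in Cdkn1a and Saa1. Of 11 T and NK cell markers tested 1 was higher and 1 lower in CA, each 9.09% and near the share of all genes. Among 20 monocyte and lipid-associated macrophage markers 3 were higher (15%) and 1, Fabp5, was lower (5%). Of 11 bile duct markers tested 1, Krt23, was higher and 1, Tff3, lower, each 9.09%. Of 18 stellate cell and matrix markers 2 were lower (11.1%) and none higher. None of the 13 endothelial, 5 neutrophil and 6 B and plasma cell markers tested was called by edgeR or DESeq2, with 1, 0 and 2 at an unadjusted p under 0.05, all higher in CA. The neutrophil genes Ly6g, Mpo and Camp were at 0 in both diets. The part of these cells in the stress results was not tested.

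The diets with 2% cholesterol gave a comparison in other libraries, with the caution that the HS_Chol libraries stood apart as described. In Chol_CA against HS_Chol 1289 genes were higher (10.2%) and 819 lower (6.5%). Of the 868 genes higher in CA than in HS, 257 were also higher there and 49 were lower; of the 797 lower ones 207 were also lower and 10 were higher. NRF2 genes were higher in 5 of 29 cases and lower in 1, and 4 of the 21 called above were also higher. Ephx1 was at -0.55 on the log2 scale (edgeR adjusted p = 0.0858), Gsta4 at 1.39 (edgeR adjusted p = 0.00681), Gstm4 at 0.29 and Gsta2 at 1.12, the last 2 not called. Of all 23 strict genes 3 were called the same way, 4 the other way (9130409I23Rik, Abcc3, Cyp2c29 and 4931406C07Rik) and 16 were not called. Of the ER chaperone list 1 of 25 was lower and none was higher (0 at an unadjusted p under 0.05), and the integrated stress response list had 3 higher and 3 lower. The acute phase list had 14 of 23 higher, and the CAR and PXR list had 7 of 21 lower and none higher (1 at an unadjusted p under 0.05). Whether the differences with and without cholesterol themselves differ was not tested.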

How the data were processed

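The deposited table holds raw read counts per gene for each library, which the authors made with STAR 2.6.1c on build mm10, per the submitters' processing notes and the series' design text; whether reads were counted by strand is not stated, and 3914 of the genes tested share exon bases with a gene on the other strand. Its columns name a diet and a number from 0, so each could be assigned a diet and not an individual sample, and 3 columns that match no label were not used. The diet with sucrose, cholesterol and cholic acid was not analysed here. Library totals are given in the report; 3 reads over a group correspond to 0.104 CPM in NC, 0.0894 CPM in HS and 0.0821 CPM in CA, and floors and intervals cover counting error only.

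From the counts, edgeR 4.0.16 (R 4.3.3) kept 12595 genes with filterByExpr, scaled the 20 libraries by TMM and fitted 1 mean per diet with the robust quasi-likelihood test. Adjusted p-values are Benjamini-Hochberg over all genes kept, called under 0.05, and the SE is the log2 fold change divided by the square root of F. CPM use TMM-scaled library sizes. DESeq2 1.42.0 and other scalings, filters, models and left-out libraries were tried as alternatives. Deviations from the diet mean correlated from -0.54 to 0.26 over 12 pairs of libraries with the same column number. Pairs with different numbers were not compared, so whether the column numbers pair the libraries is unsettled. Gene positions and lengths are from GENCODE M21 (GRCm38, the build named mm10); 29014 symbols of the table were found by name, 1876 by an older name, and 3546 were not found. Symbols are written as in the table.

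The members, the 33 gene lists and the tests were chosen with earlier results of these data known. Genes were named by a rule: the 8 largest changes of each sign at 5 CPM or more without overlap of the diets; stress genes opposite by the strict reading and, per stress list, the 3 opposite by the loose reading and the 2 overall with the smallest adjusted p; the 2 called members with the smallest adjusted p of every other list; and 20 set names. 1 gene the rule names is not reported here. Further members are named to account for a list's counts, chosen after their values were seen.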

Additional observations from a re-analysis of the deposited data

Results flagged for a closer look

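Dixon's criterion on the gap to the nearest library was applied to 268 groups in the 90 genes named. It found a single library far from the others of its diet in 31. The criterion flags about 1 in 20 groups of independent normal values. These are CPM of genes named from these data, some with a single read among zeros, so that rate need not hold here. In CA_0, the library with the highest Kupffer and T cell marker sums, Saa1 was 192 CPM against at most 35.0 CPM in the other CA libraries, Hspa5 549 CPM against at most 399 CPM, Lrat 14.0 CPM, Mup11 4.58 CPM and Mup17 13.5 CPM, each the highest of its diet. In CA_2 the highest values were Atf3 at 7.01 CPM, Cyp7a1 at 1.38 CPM and Susd4 at 0.592 CPM, and Pfkfb1 was lowest at 9.57 CPM. In CA_3 Top2a, a proliferation marker, was highest at 8.82 CPM.

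In HS_0 the chaperone genes Dnajb11 and Pdia6 were lowest, at 78.3 and 196 CPM, and so was C6 at 181 CPM. In HS_1 Ldha was lowest at 476 CPM and Cd4 highest at 7.82 CPM. In HS_2 Fdps was highest at 142 CPM and Pnpla3 at 48.9 CPM, and in HS_3 Cyp7a1 was highest at 37.0 CPM and Slc7a11 at 0.136 CPM, a single read.

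Among the chow libraries NC_3, whose levels fall with transcript length, was highest in Myc at 31.8 CPM, Vegfa at 200.3 CPM, Serpina1c at 4248 CPM, Pnpla3 at 7.95 CPM, Cyp2b9 at 1.14 CPM and Cyp2b13 at 0.142 CPM. NC_0 was highest in Moxd1 at 41.2 CPM, Mup11 at 495 CPM and Mup17 at 802 CPM. In NC_2 Slc7a11 was highest at 0.259 CPM and Eda2r at 0.648 CPM, and Lcn2 was lowest at 1.43 CPM. The part of these libraries in the results was not tested beyond leaving each out.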

How the results depend on the processing

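The count of NRF2 and glutathione genes higher in CA than in HS moved least, from 18 to 22 over all alternatives against 21. For CA against HS (868 genes higher, 797 lower) leaving out single libraries gave 560 to 994 higher and 547 to 960 lower, for CA against NC 376 to 685 and 416 to 642, and for HS against NC 6 to 58 and 29 to 100. It gave 9 to 27 strict genes, 1 to 4 strict stress genes, 3 to 10 integrated stress response genes higher and 5 to 12 ER genes lower. The fewest strict genes, 9, were left without NC_2; HS against NC had 58 higher and 100 lower without NC_3.

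DESeq2 called 60 genes higher and 145 lower in HS against NC, 48 strict genes and 7 strict stress genes. Without a low-count filter 7 ER genes were lower. A stricter filter left 14 genes higher in HS against NC and 5 integrated stress response genes. With HS and CA fitted alone 6 ER genes were lower. The replicate block on the column number, which uses 12 libraries, gave 523 genes lower in CA than in HS, 6 higher and 14 lower in HS against NC, 4 strict genes, 1 strict stress gene (Ephx1), 3 integrated stress response genes higher and 0 ER genes lower (edgeR; DESeq2 had no block). The same 12 libraries without the block, an alternative added after seeing the data, gave 13 higher and 32 lower in HS against NC, 12 strict genes, 2 strict stress genes and 5 ER genes lower. Whether the numbers pair the libraries is not known.

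Among libraries of rising length trend alone CA against NC had 1521 higher and 1445 lower, HS against NC 186 and 193, and 68 genes were strict; Saa1 turned to -0.49. Adding the sign of the length trend to the model gave 1339 higher in CA than in HS, 1069 and 930 against NC, 49 and 94 in HS against NC, and 37 strict genes. The length and GC offset gave 915 lower in CA against NC, 105 lower in HS against NC and 36 strict genes, and put 45.4% of the CA to HS calls on the higher side against 52.1%. With a minimum fold change of 1.5, 267 and 272 genes were called in CA against HS, 197 and 187 in CA against NC, and 4 and 14 in HS against NC. It left 2 strict genes, 0 strict stress genes, 30 loose stress genes, 5 integrated stress response genes and 0 ER genes. Saa1 ran from -0.53 without CA_0 to 1.34 without CA_2, and 33 of the named genes lost a call in at least 1 alternative. The cause of these changes was not tested; fewer libraries enter some of the fits, and the genes near 0 in HS are limited by depth.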

Other observations

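Further genes that differed between CA and HS are described here. Of 31 genes of PPARalpha and fatty acid oxidation 9 were higher in CA (29.0%, against 6.89% of all genes tested) and 2 lower (6.45%, against 6.33%). Cyp4a14, a fatty acid omega-hydroxylase, was at 109, 8.63, 19.5, 22.2 and 70.0 CPM in HS, 169, 979, 863 and 548 CPM in NC and 763, 684, 1377 and 809 CPM in CA (log2 fold change 4.31 ± 0.62 SE, edgeR adjusted p = 7.79e-05), so that HS lay below both. Hsd17b6, a retinol and steroid dehydrogenase, rose from 65.4 to 145 CPM in HS to 967 to 1543 CPM in CA, above NC at 97.6 to 226 CPM. Slc40a1, the iron exporter ferroportin and 1 of the Kupffer cell markers counted above, rose from 63.4 to 109 CPM to 141 to 309 CPM (log2 fold change 1.35 ± 0.22 SE, edgeR adjusted p = 0.00025), while Alas2, of heme synthesis, was lower in CA (log2 fold change -1.10).

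Fabp5, a fatty acid binding protein, stood at 65.6, 123, 142, 94.0 and 111 CPM in HS, 32.1, 29.4, 16.2 and 69.5 CPM in NC and 11.2, 4.83, 2.47 and 2.23 CPM in CA (log2 fold change -4.38 ± 0.53 SE, edgeR adjusted p = 1.1e-05). Tff3, a secreted trefoil peptide, was called higher than chow in HS and lower in CA than in HS (log2 fold change -4.00). Krt23, a keratin, was at 1.95 to 5.21 CPM in HS and 11.9 to 28.9 CPM in CA. Of 18 cell cycle genes 3 were higher in CA (16.7%, against 6.89% of all genes tested). None was lower by edgeR, by DESeq2 or at an unadjusted p under 0.05. Among the higher was Ccnd1 (cyclin D1), at 31.4 to 85.7 CPM in HS and 95.5 to 192 CPM in CA (log2 fold change 1.33 ± 0.29 SE, edgeR adjusted p = 0.00331). Among libraries of rising length trend alone Ccnd1 was not called (edgeR adjusted p = 0.104). Neither was Top2a (edgeR adjusted p = 0.0686), which also lost its call without CA_3 (edgeR adjusted p = 0.104).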
